A study of Rattus norvegicus with 17 samples.

Results

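The 36 genes described here mark the endothelium, the cell layer that lines blood and lymph vessels. They were taken as a list of symbols and matched by name in the gene tables that compare each kidney surgery with sham. Of the 36, 34 had a row and a test in both tables, out of 126306 listed features of which 31195 carry 1 gene name. Pecam1 and Robo4, a junction and a guidance receptor gene, have no expression value analysed here, and they enter no count of levels or fold changes.

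The tissue was the left kidney of male Sprague Dawley rats, which came at 9 weeks of age, ate a 0.4% Dyets chow and had surgery at 10 weeks. Kidneys were taken 6 weeks after surgery. In 5/6Nx (n = 6) surgery had taken the whole right kidney and most of the left, so the remnant was the sole kidney tissue. In 1/3Nx (n = 6) the left kidney was reduced likewise and the right one kept, and in Sham (n = 5) no kidney tissue was removed. No group carried a transgene or received a drug.

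Kidney endothelium is unusually varied. Glomerular capillaries are fenestrated and filter plasma, peritubular capillaries take up what tubules reabsorb, vasa recta run through the medulla, and arteries and lymphatics have their own gene sets. Endothelial cells are held together by VE-cadherin, kept alive and made to sprout by VEGF acting on tyrosine kinase receptors, quieted by angiopoietin 1 acting on TIE2, and given arterial identity by Notch. ETS and SOXF transcription factors turn on many of their genes. Loss of peritubular capillaries is a known feature of scarring kidneys.

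ETS factors bind DNA around a core of letters that includes GGAAG, so the stretch before the start of transcription is shown for the members that passed the test and have an entry in the RefSeq promoter table, 3 of 7. Each is the 250 bases upstream of the start on assembly GRCr8, written 5′ to 3′ on the gene's strand, with GGAAG or its reverse complement CTTCC in capitals. The window of Flt4 is chr10:34414584-34414833 on the plus strand, that of Cd34 is chr13:109008536-109008785 on the plus strand and that of Lyve1 is chr1:174410978-174411227 on the minus strand.
Flt4: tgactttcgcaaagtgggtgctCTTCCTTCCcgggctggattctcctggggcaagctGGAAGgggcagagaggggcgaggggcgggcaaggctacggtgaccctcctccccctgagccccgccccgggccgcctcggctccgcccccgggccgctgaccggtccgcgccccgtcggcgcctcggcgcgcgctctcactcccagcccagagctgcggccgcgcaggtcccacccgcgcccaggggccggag
Cd34: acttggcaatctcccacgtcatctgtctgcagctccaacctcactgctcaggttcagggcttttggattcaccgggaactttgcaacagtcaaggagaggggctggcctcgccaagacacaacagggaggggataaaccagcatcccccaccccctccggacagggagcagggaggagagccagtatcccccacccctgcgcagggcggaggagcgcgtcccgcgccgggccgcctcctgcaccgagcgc
Lyve1: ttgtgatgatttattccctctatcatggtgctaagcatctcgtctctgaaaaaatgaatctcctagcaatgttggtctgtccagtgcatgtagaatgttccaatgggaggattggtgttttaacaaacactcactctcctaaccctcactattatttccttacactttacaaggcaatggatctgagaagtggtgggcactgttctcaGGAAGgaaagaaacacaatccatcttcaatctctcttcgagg
The window of Flt4 holds 3 matches, that of Lyve1 holds 1 and that of Cd34 holds 0. Among 22 members with an entry, 16 have at least 1 match on either strand, or 72.7%, beside 65.1% of all 27457 genes in the table. The 5 letters are therefore common in any window of this length, and a match is a description of the letters only.

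The libraries held 59.0 to 103.6 M reads (SI prefix mega) in 5/6Nx, 59.7 to 83.0 M in 1/3Nx and 66.1 to 78.5 M in Sham. Reads mapped at 62.6% to 90.5%, 87.1% to 90.1% and 84.8% to 89.6% in the same order, with the lowest shares in replicates 3 and 5 of 5/6Nx. The authors' deposited tables hold 1 FPKM value per group, that is fragments per kilobase and per M mapped fragments, with a log2 fold change and a q-value, so no SD and no value for a single kidney can be given. A member is said to rise or fall where its deposited q-value was under 0.05. Both tables share the same sham kidneys, yet the sham FPKM of the members in the 1/3Nx table was 2.00 to 2.02 times that in the 5/6Nx table, so levels are compared within a table only.

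In sham kidney all 34 members were detected, over a wide range of levels. The authors' deposited table for 1/3Nx lists Plvap, the diaphragm protein of fenestrated capillaries, highest at 62.2 FPKM. Emcn, a surface sialomucin of capillaries and veins, followed at 49.8 FPKM and Vwf, the clotting factor stored by endothelium, at 49.0 FPKM by the authors' deposited table. Next came the tight junction gene Cldn5 at 23.9 FPKM and the TGF-beta coreceptor gene Eng at 22.9 FPKM by the authors' deposited table. At the other end, the authors' deposited table lists the arterial gap junction gene Gja5 at 1.02 FPKM and Flt4, which encodes the VEGF-C receptor VEGFR3 of lymphatics, at 0.899 FPKM. Flt4, Gja5, Dll4, Prox1 and Notch4, all of the arterial and lymphatic sets, made up the low end. Whether neighbours in this order differ cannot be told from 1 value per group.

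The first comparison asks how these genes differed from sham in a reduced kidney whose partner was kept. In 1/3Nx 30 of 34 members had higher and 4 lower values, 6 rose, 1 fell and 27 did not pass the authors' deposited threshold. The 6 were Cdh5, Cd34, Angpt2, Aplnr, Flt4 and Lyve1, and the 1 that fell was Vwf. Of all 21217 tested features 3.96% rose and 2.44% fell, and of the 11639 tested features with 1 gene name and a mean FPKM of at least 1 these shares were 5.40% and 2.98%. All 34 members met that filter. In these whole kidney samples, more cells of a type and more RNA per cell cannot be told apart, nor can fewer cells and less RNA per cell.

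The median log2 fold change of the 34 members was 0.44 (quartiles 0.21 and 0.73), beside 0.01 (quartiles -0.29 and 0.31) for the 11639 features. Their summed level was 377 FPKM in sham and 425 FPKM in 1/3Nx, and 328 and 402 FPKM without Vwf, from the authors' deposited table. Fold changes were larger among the members with lower levels. The 15 members with a mean of 1 to 5 FPKM had a median log2 fold change of 0.69, beside 0.25 for the 3529 features at that level. The 19 members with a mean of at least 5 FPKM had a median of 0.28, beside -0.07 for 8110 features. Every member that rose lay between 0.899 and 4.09 FPKM in sham, while the 11 members at 10 FPKM or more in sham had log2 fold changes of -0.18 to 0.46 apart from Vwf at -1.12, by the authors' deposited table.

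**Figure D1:**
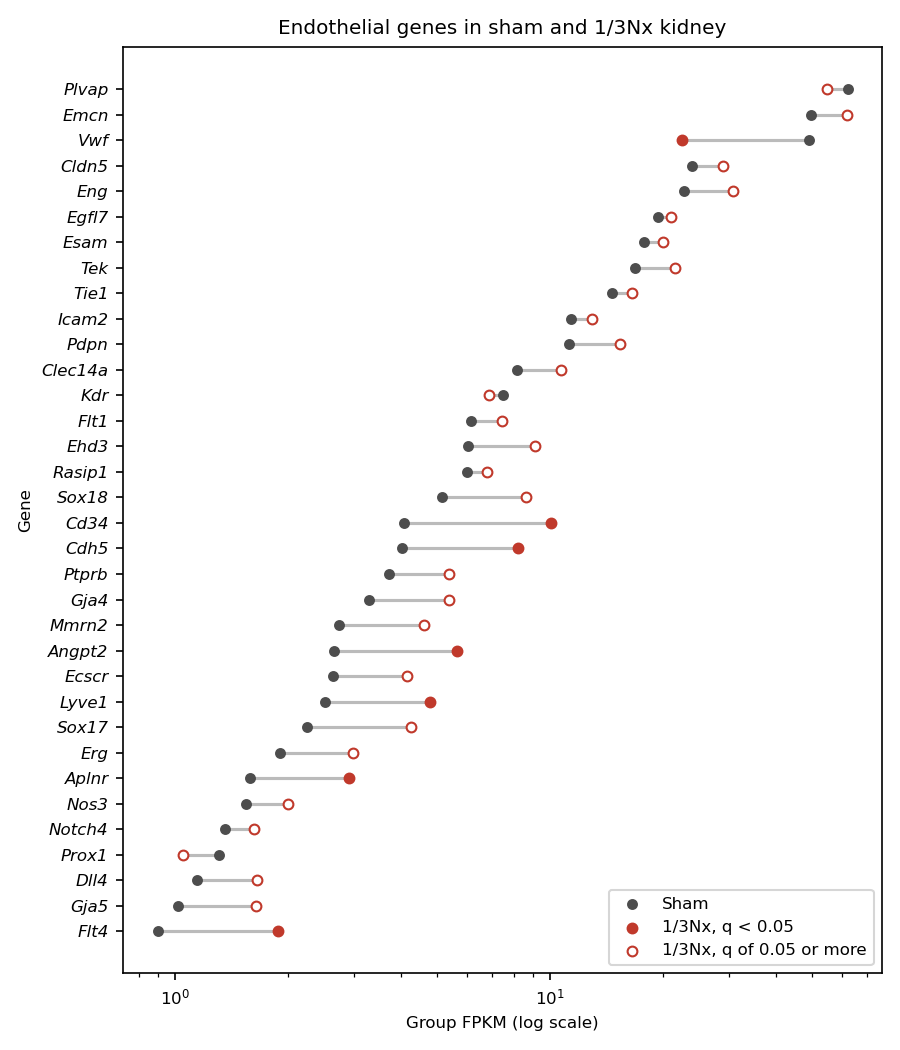
Group FPKM of the 34 endothelial genes in sham (grey) and 1/3Nx (red, filled where the deposited q-value was under 0.05) on a log axis, ordered by the sham level, with 1 value per group and a line joining both. The 6 genes that rose, from Cd34 at 4.09 FPKM to Flt4 at 0.899 FPKM in sham, sit below the middle of the order, and Vwf, which fell from 49.0 to 22.5 FPKM, sits near the top.

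Among the 16 junction and surface members with a row, 2 rose and 1 fell. Cdh5 encodes VE-cadherin, the adhesion molecule of endothelial junctions. Cdh5 went from 4.03 FPKM in sham to 8.20 FPKM in 1/3Nx by the authors' deposited table, a 2.04-fold rise (log2 fold change 1.03, q = 0.00183), and this q is the smallest that table holds. Cd34, a sialomucin of capillary endothelium that some stromal and blood progenitor cells also carry, went from 4.09 to 10.1 FPKM (log2 fold change 1.3001, q = 0.00711) by the authors' deposited table. Its rise of 2.46-fold was the largest among the members in 1/3Nx. The fibroblast gene Dcn rose beside it, from 49.7 to 170 FPKM (log2 fold change 1.77, q = 0.00183) by the authors' deposited table, and its part in the Cd34 value was not tested.

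Vwf, which encodes von Willebrand factor, moved the other way, from 49.0 FPKM in sham to 22.5 FPKM in 1/3Nx by the authors' deposited table (log2 fold change -1.12, q = 0.00183). It was the only one of the 34 members that fell in the authors' test. Platelets carry the same protein. Of 3 tested platelet genes the integrin gene Itga2b fell as well, from 14.4 to 7.61 FPKM (log2 fold change -0.93, q = 0.00833), by the authors' deposited table. The chemokine gene Pf4 stood at 1.74 on the log2 scale (q = 0.0747) and the adhesion receptor gene Gp9 at -0.81 (q = 0.532) by the authors' deposited table, and the receptor gene Gp1ba, at 0.00966 FPKM in sham, had no test. Whether platelets had a part in the Vwf value was not tested.

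The other 13 junction and surface members did not pass in 1/3Nx. Emcn had 49.8 FPKM in sham and 62.1 in 1/3Nx (log2 fold change 0.32, q = 0.465) and Plvap had 62.2 and 54.8 (log2 fold change -0.18, q = 0.746) by the authors' deposited table. Cldn5 and Esam, both of cell junctions, had log2 fold changes of 0.28 (q = 0.644) and 0.17 (q = 0.784) by the authors' deposited table. Eng was at 0.43 (q = 0.282), the adhesion gene Icam2 at 0.19 (q = 0.797), the secreted vessel factor gene Egfl7 at 0.12 (q = 0.901) and the junctional regulator gene Rasip1 at 0.18 (q = 0.806) by the authors' deposited table. Mmrn2, an extracellular matrix protein gene of endothelium, came nearest to the threshold at 0.76 (q = 0.0694), while its binding partner gene Clec14a was at 0.39 (q = 0.377), by the authors' deposited table. Ecscr, a surface regulator gene, was at 0.66 (q = 0.305), Ehd3, an endocytic gene of glomerular endothelium, at 0.60 (q = 0.218) and Nos3, the endothelial nitric oxide synthase gene, at 0.36 (q = 0.617) by the authors' deposited table.

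Of the 8 members for receptors, their ligand and their phosphatase, 3 rose. Flt4 went from 0.899 FPKM in sham to 1.88 FPKM in 1/3Nx (log2 fold change 1.06, q = 0.00598) by the authors' deposited table. The other VEGF receptor genes did not pass: Kdr, the main signalling receptor VEGFR2, had 7.50 and 6.89 FPKM (log2 fold change -0.12, q = 0.845) by the authors' deposited table. Flt1, the decoy-like receptor VEGFR1, had 6.17 and 7.44 FPKM (log2 fold change 0.27, q = 0.732) by the authors' deposited table. The 3 VEGF receptor genes thus had unequal fold changes, and a difference between them was not tested.

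Angpt2, the angiopoietin that endothelial cells release when vessels are remodelled and that antagonises TIE2 in many settings, went from 2.66 to 5.65 FPKM (log2 fold change 1.09, q = 0.0143) by the authors' deposited table. The TIE2 receptor gene Tek had 16.9 and 21.6 FPKM (log2 fold change 0.35, q = 0.741) and its partner gene Tie1 had 14.7 and 16.6 FPKM (log2 fold change 0.18, q = 0.791) by the authors' deposited table. Ptprb, the phosphatase that removes phosphate from TIE2, was at 0.54 on the log2 scale (q = 0.187) by the authors' deposited table. Angpt2 therefore passed and the receptor and phosphatase genes did not.

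Aplnr, the receptor for apelin that is found on sprouting and venous endothelium, went from 1.59 to 2.91 FPKM in 1/3Nx (log2 fold change 0.87, q = 0.0476) by the authors' deposited table. This was the member nearest to the threshold among those that passed. The ligand gene Apln had 0.753 and 1.37 FPKM (log2 fold change 0.86, q = 0.179) by the authors' deposited table, short of the threshold.

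Lymphatic genes were among the risers too. Lyve1, the hyaluronan receptor of lymphatic endothelium and of some macrophages, went from 2.51 to 4.80 FPKM (log2 fold change 0.93, q = 0.0134) by the authors' deposited table. With Flt4, this made 2 of 4 lymphatic members. Prox1, the transcription factor that sets lymphatic identity, had 1.31 and 1.05 FPKM (log2 fold change -0.32, q = 0.693), and Pdpn, podoplanin, which podocytes also make, had 11.2 and 15.4 FPKM (log2 fold change 0.46, q = 0.305), by the authors' deposited table. Macrophage and leukocyte genes were higher too: all 6 tested rose, with a summed level of 19.9 FPKM in sham and 54.4 FPKM in 1/3Nx by the authors' deposited table. Their part in the Lyve1 value was not tested.

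None of the 4 transcription factor members and none of the 4 arterial and Notch members passed, and each set had 2 members whose unadjusted p was under 0.05 by the authors' test. Sox17, a SOXF factor of arterial endothelium, had 2.25 and 4.27 FPKM (log2 fold change 0.93, q = 0.0538) by the authors' deposited table, and an adjustment over the features with 1 gene name alone brought it past the threshold (recomputed q = 0.0414). Of the 13326 features in that recomputation, 6.33% were higher and called. Sox18, its relative, was at 0.74 (q = 0.129) and the ETS factor gene Erg at 0.66 (q = 0.345) by the authors' deposited table. The arterial connexin genes Gja4 and Gja5 were at 0.70 (q = 0.193) and 0.69 (q = 0.259), the Notch ligand gene Dll4 at 0.53 (q = 0.376) and the receptor gene Notch4 at 0.26 (q = 0.940) by the authors' deposited table. All 8 values but that of Prox1 were thus above sham, with none past the threshold.

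Several members stood close to the threshold. Of the 34, 15 had an unadjusted p under 0.05, 14 with higher values and 1, Vwf, with a lower one. Among the 11639 named features at the filter, 11.5% were higher and 9.49% lower at that p. Of the 15 members 8 did not pass once adjusted over all tested features. Those 8 were Sox17, Mmrn2, Sox18, Ptprb, Gja4, Ehd3, Gja5 and Eng. The highest unadjusted p that still passed in the whole 1/3Nx table was 0.0032.

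The second comparison asks the same of the remnant that was the sole kidney tissue. In 5/6Nx 23 of 34 members had higher and 11 lower values, 1 rose, 0 fell and 33 did not pass the authors' deposited threshold. At an unadjusted p under 0.05 there were 2, both higher, Aplnr and Prox1, and 0 lower, where 8.87% of the 11512 named features at the filter were higher and 0.191% lower. Of all 103823 features tested there, 57.9% rose and 0.137% fell, and of the 11512 with 1 gene name and a mean FPKM of at least 1 these shares were 7.18% and 0.0869%. The filter was met by 31 of the 34 members, whose median log2 fold change was 0.36 (quartiles -0.12 and 0.86), beside -0.08 (quartiles -0.43 and 0.61) for those 11512 features. Over all 34 the median was 0.35. The median depended on the level. The 12 members with a mean of at least 5 FPKM had a median of 0.0497, beside -0.12 for 6384 features. The 19 with a mean of 1 to 5 FPKM had 0.62, beside 0.0182 for 5128 features.

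Aplnr was the member that rose. It went from 0.790 FPKM in sham to 19.8 FPKM in 5/6Nx by the authors' deposited table, a 25.1-fold difference (log2 fold change 4.65, q = 0.0108). Its level was low in sham and, in 5/6Nx, among those of the abundant capillary genes Emcn and Plvap, which had 19.0 and 25.4 FPKM by the authors' deposited table. With q-values recomputed over the 14452 tested features with 1 gene name, of which 4.08% were higher and called, Aplnr did not pass (recomputed q = 0.126). Apln stood at 0.75 (q = 0.634) on the log2 scale by the authors' deposited table. Whether 1 of the 6 libraries carried the Aplnr value was not tested, since the tables hold no value per kidney, and replicates 3 and 5 of this group mapped at 62.6% and 77.2%.

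By deposited p-value Prox1 came second, from 0.650 to 2.203 FPKM (log2 fold change 1.76, q = 0.0524), by the authors' deposited table, just short of the threshold. Dll4 had 0.569 and 1.95 FPKM (log2 fold change 1.77, q = 0.220), and Cldn5 had 11.97 and 25.9 FPKM (log2 fold change 1.11, q = 0.493), by the authors' deposited table. Erg was at 1.09 (q = 0.300) and Nos3 at 0.92 (q = 0.352) by the authors' deposited table. Among the members with lower values were Vwf, with 24.5 FPKM in sham and 8.40 in 5/6Nx (log2 fold change -1.55, q = 0.337), and Ptprb at -0.48 (q = 0.777), by the authors' deposited table. Emcn at -0.39 (q = 0.864), Tek at -0.39 (q = 0.776) and Flt1 at -0.39 (q = 0.708) also had lower values by the authors' deposited table.

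Because the same sham kidneys serve both comparisons, the members' fold changes are set side by side without a test between them. Of the 34 members, 22 had higher values in both tables, 3 had lower values in both and 1, Prox1, was lower in 1/3Nx and higher in 5/6Nx. The other 8, higher in 1/3Nx and lower in 5/6Nx, were Flt1, Tek, Tie1, Emcn, Ehd3, Ptprb, Sox17 and Pdpn. Of the 6 that rose in 1/3Nx, Cd34 had log2 fold changes of 1.3001 in 1/3Nx and 1.25 in 5/6Nx (q = 0.302) by the authors' deposited tables. Flt4 had 1.06 and 1.37 (q = 0.326), Lyve1 had 0.93 and 1.298 (q = 0.203), Cdh5 had 1.03 and 0.80 (q = 0.596), and Angpt2 had 1.09 and 0.60 (q = 0.706), in the same order by the authors' deposited tables. Vwf had -1.12 and -1.55 (q = 0.337) by the authors' deposited tables. Except for Aplnr, the members that passed in 1/3Nx thus had values of the same sign in 5/6Nx that did not pass.

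**Figure D2:**
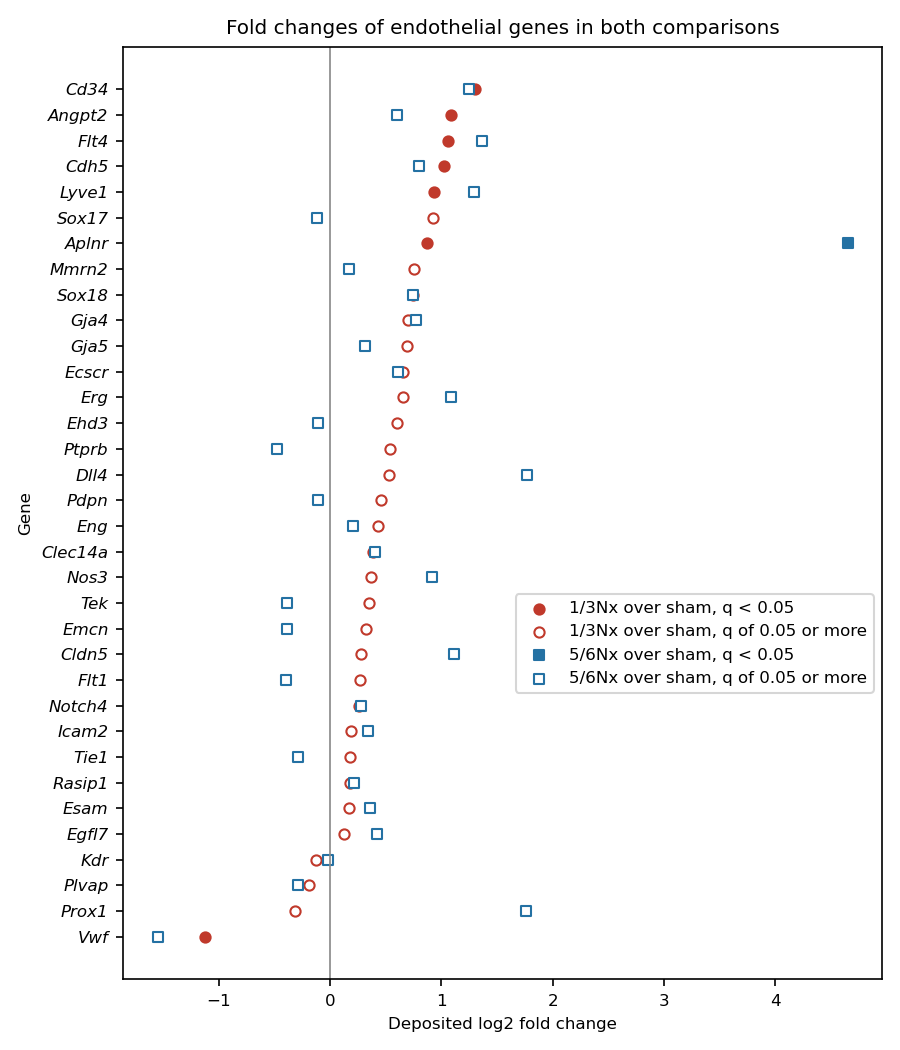
Deposited log2 fold changes over sham of the 34 endothelial genes in 1/3Nx (red circles) and 5/6Nx (blue squares), filled where the deposited q-value was under 0.05, ordered by the 1/3Nx value. The red values run from -1.12 for Vwf to 1.3001 for Cd34 with 7 filled, while the blue ones spread from -1.55 for Vwf to 4.65 for Aplnr with 1 filled.

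The deposited tests also asked for different sizes of effect. A log2 fold change divided by its deposited test statistic says how large a change stood behind 1 unit of the statistic. For the 34 members the median was 0.66 (range 0.49 to 4.09) in 1/3Nx and 3.62 (range 2.27 to 21.3) in 5/6Nx. The medians of all named features at the filter were 0.62 and 3.398, so the members were like other genes in this. Cd34 shows it: almost the same log2 fold change gave q = 0.00711 in 1/3Nx and q = 0.302 in 5/6Nx by the authors' deposited tables. A member that passed in 1/3Nx and not in 5/6Nx is therefore not shown to differ between them.

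**Figure D3:**
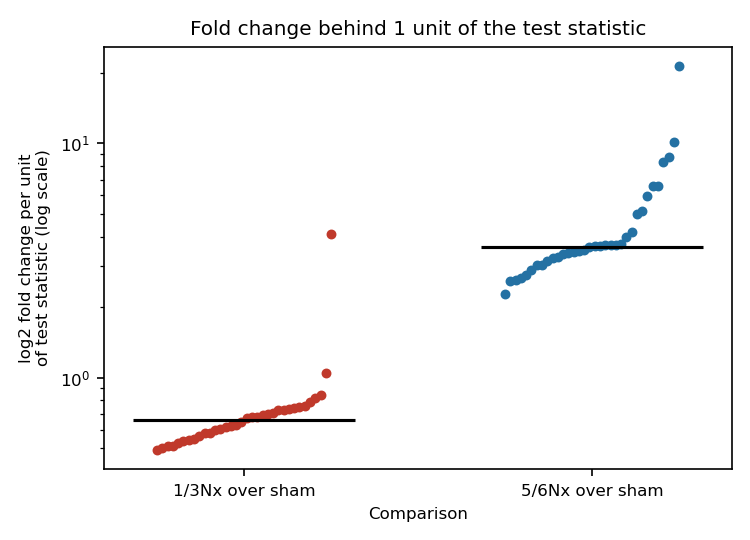
Log2 fold change per unit of the deposited test statistic for the 34 endothelial genes in each comparison, on a log axis, with points ordered by value from left to right and a black line at the median. The points centre on 0.66 in 1/3Nx and on 3.62 in 5/6Nx, and the highest in both, 4.09 and 21.3, is Notch4.

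A gene value in these tables sums several transcripts, some annotated and some assembled from the reads by the authors. Of the 34 members 24 have several transcripts, and in 12 the annotated ones made up less than 50% of the sham level. Vwf was the extreme case. A single assembled transcript carried 46.4 of its 49.0 FPKM in sham and went to 20.2 FPKM in 1/3Nx (log2 fold change -1.20, q = 0.00490), by the authors' deposited table of transcripts. The annotated Vwf transcript had 0.128 and 0.395 FPKM, or 0.262% of the gene's sham level, with q = 0.999 by the authors' deposited table. The fall of Vwf thus rested on a transcript that the annotation does not hold.

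Cdh5 showed another division. Its main annotated transcript went from 3.29 to 8.04 FPKM in 1/3Nx (log2 fold change 1.29) and its assembled one from 0.741 to 0.160 FPKM (log2 fold change -2.21) by the authors' deposited table of transcripts. Neither passed on its own (q = 0.419 and q = 0.999) by the authors' deposited table. Esam had annotated transcripts that went from 5.94 to 11.2 FPKM and an assembled one that went from 11.9 to 8.91 FPKM (log2 fold change -0.42, q = 0.999) by the authors' deposited table. Pdpn and Mmrn2 had annotated levels of 4.30 and 1.57 FPKM in sham and of 9.56 and 3.59 FPKM in 1/3Nx by the authors' deposited table. With annotated transcripts alone, 30 members had higher and 4 lower values in 1/3Nx, and the median log2 fold change was 0.63. The members behind these counts changed, since Vwf turned to 1.62 and Rasip1 to -0.025. In 5/6Nx annotated transcripts alone gave 19 members with higher and 15 with lower values. There Cldn5 was at 0.18, Nos3 at -0.60 and Prox1 at -2.86, the last from 0.0567 FPKM in sham. Dll4 and Erg kept their 5/6Nx values of 1.77 and 1.09. With the transcript of the highest mean level for each member, Flt4, Cd34 and Angpt2 still rose and Vwf still fell in 1/3Nx, per the authors' deposited table.

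**Figure D4:**
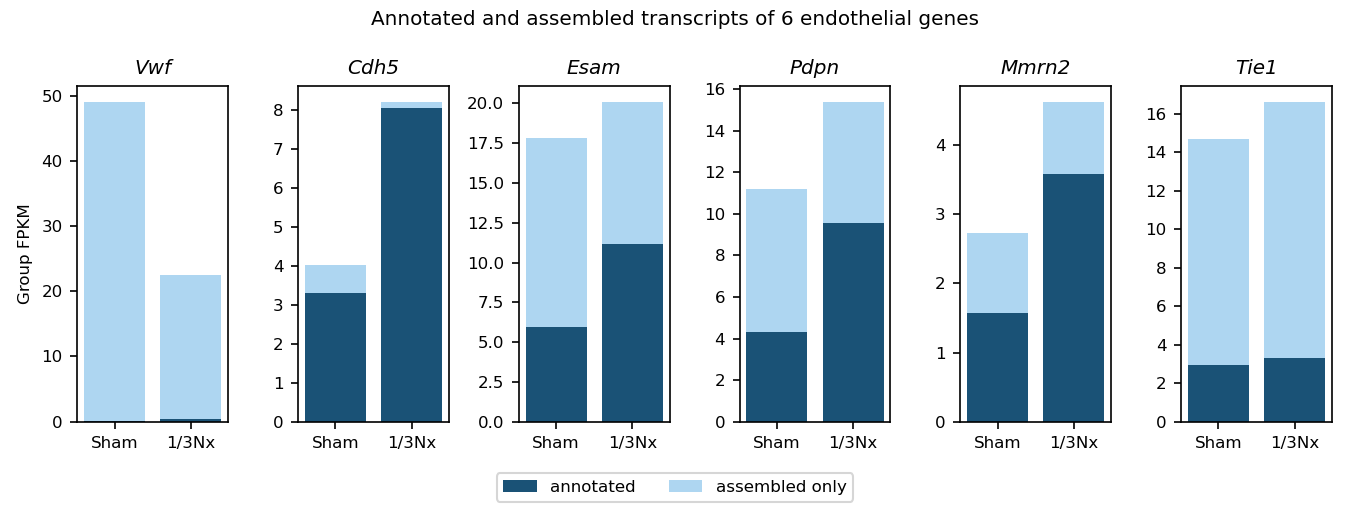
Group FPKM of annotated (dark) and assembled (light) transcripts stacked for 6 endothelial genes in sham and 1/3Nx, each panel with its own axis from 0. The bar of Vwf is almost wholly assembled transcripts (annotated 0.128 of 49.0 FPKM in sham), while that of Cdh5 is mostly annotated (3.29 of 4.03 FPKM in sham).

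Feature intervals were wide for some members. The authors' deposited table lists Angpt2 at 75904005 to 76110553 on chromosome 16, a span of 206548 bp, and Notch4 over 214790 bp. Each of these 2 genes has 1 transcript, an annotated one that holds 100% of its level in sham. Whether reads of other genes inside these intervals entered the values was not tested. It lists Cdh5 at 1023682 to 1074365 on chromosome 19, Flt4 at 35078725 to 35121599 on chromosome 10 and Cd34 at 113662177 to 113711647 on chromosome 13. Lyve1 is listed at 175662004 to 175676699 on chromosome 1, Aplnr at 72540537 to 72544182 on chromosome 3 and Vwf at 158088504 to 158219531 on chromosome 4 by the authors' deposited table. Which build these positions follow could not be settled, and they are not on the assembly of the promoter sequences above.

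Genes of the same pathways were counted beside the members. Of the named features at the filter, 5.40% rose in 1/3Nx and 7.18% in 5/6Nx. At an unadjusted p under 0.05 by the authors' test, 11.5% were higher and 9.49% lower in 1/3Nx. In 5/6Nx these shares were 8.87% and 0.191%. No list was tested against these shares. In 1/3Nx 1 of 7 VEGF ligands and coreceptors rose, the neuropilin gene Nrp2, which serves VEGFR3 (log2 fold change 1.34, q = 0.00183), by the authors' deposited table. The placental growth factor gene Pgf was at 1.12 (q = 0.308) and the semaphorin receptor gene Plxnd1 at 0.75 (q = 0.0638) by the authors' deposited table. In 5/6Nx 1 of 8 rose, the semaphorin gene Sema3a (4.64, q = 0.0260, but 0.233 when recomputed over named features), by the authors' deposited table. There Nrp2 was at 2.29 (q = 0.0543, and 0.373 when recomputed likewise) by the authors' deposited table. Of 4 angiopoietin ligands and partners 1 rose in 1/3Nx, Svep1, a matrix protein gene (1.24, q = 0.00183), and Angpt1, the TIE2 agonist gene, was at 0.28 (q = 0.689) by the authors' deposited table. Of 13 Notch pathway genes 1 rose in 1/3Nx, Notch3, the receptor of mural cells (1.39, q = 0.0104), by the authors' deposited table. In 5/6Nx 0 angiopoietin and 0 Notch genes passed the authors' test, also with 0 at an unadjusted p under 0.05. Of 9 genes of BMP9, ALK1 and endoglin signalling 0 passed in the authors' test in 1/3Nx. Acvrl1, the ALK1 gene, was at 0.44 (q = 0.382) and Smad1 at 0.50 (q = 0.260, unadjusted p = 0.0428) by the authors' deposited table. Id2 was at -0.37 (q = 0.436) by the authors' deposited table. Higher values were held by 5 of the 9 genes in 1/3Nx (median 0.16) and by 2 of 10 in 5/6Nx (median -0.17).

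Lists of other endothelial genes were counted too, chosen with earlier results known, where 5.40% of the 11639 named features rose. Of 17 further endothelial transcription factor genes 5 rose and 0 fell in 1/3Nx, among them the ETS genes Ets1 (log2 fold change 1.06), Fli1 (1.11) and Elk3 (1.11), each with q = 0.00183, by the authors' deposited table. Klf4, a flow-responsive factor gene, rose by 1.05 (q = 0.00335) by the authors' deposited table. Of 27 other genes known from endothelium 11 rose and 0 fell in 1/3Nx. They included the caveolin gene Cav1 (1.11), the receptor gene Calcrl (1.20), Sparcl1 (1.89) and the lymphatic gene Mmrn1 (3.13), each with q = 0.00183, by the authors' deposited table. In 5/6Nx 0 of 16 such factor genes passed in the authors' test, also with 0 at an unadjusted p under 0.05. Of the 27 others 1 did, Rapgef5, a Rap exchange factor gene (5.82, q = 0.00274), by the authors' deposited table, also when recomputed over named features (0.0393). It is named here because it was the one that passed. Many of these genes are also active in smooth muscle, fibroblasts or leukocytes.

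By vessel bed, 0 of 10 glomerular endothelial genes passed the authors' test in 1/3Nx. This list holds the members Ptprb, Ehd3 and Emcn. Of the 10, 4 had an unadjusted p under 0.05 by the authors' test, all with higher values, where 11.5% of named features at the filter were higher. These 4 were the members Ptprb and Ehd3, the lipase gene Lpl (0.50, q = 0.230) and Tbx3 (0.92, q = 0.239) by the authors' deposited table. Of 6 vasa recta genes 1 rose in 1/3Nx, the urea transporter gene Slc14a1 (1.60, q = 0.00183), by the authors' deposited table, and its value in 5/6Nx was -0.12 (q = 0.939). Aqp1 was at -0.39 (q = 0.443) and Igfbp7 at -0.19 (q = 0.786) in 1/3Nx by the authors' deposited table. In this list, which holds the member Plvap, 2 of 6 values were higher in 1/3Nx (median -0.11) and 0 of 6 in 5/6Nx. In sham Aqp1 stood at 640 FPKM and Igfbp7 at 1497 FPKM, beside 62.2 for Plvap, by the authors' deposited table for 1/3Nx. How much of these whole kidney values came from vasa recta was not tested. Of 10 genes of activated endothelium and leukocyte adhesion 4 rose in 1/3Nx, with Vcam1 at 1.55 (q = 0.00183), Icam1 at 0.82 (q = 0.0170) and Selp at 1.98 (q = 0.0202) by the authors' deposited table. The fourth was Cd44 (2.73, q = 0.00183), which leukocytes and injured tubules also carry, by the authors' deposited table. None of these 3 lists had a gene past the authors' threshold in 5/6Nx, and 1 gene in all, Cd44, had an unadjusted p under 0.05.

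Markers of several other cell types also had higher values than in sham, and their part in the members' values was not tested. In 1/3Nx 6 of 7 mural genes rose, with a summed level of 48.0 FPKM in sham and 137 FPKM in 1/3Nx, and the smooth muscle actin gene Acta2 rose by 1.63 (q = 0.00183) on the log2 scale, by the authors' deposited table. Acinar genes of the pancreas, near absent from sham at a summed 0.778 FPKM, stood at 483 FPKM in 1/3Nx, and all 4 rose, by the authors' deposited table. Of 4 adipocyte genes Fabp4 rose in 1/3Nx and Adipoq and Cfd in 5/6Nx, where their summed level was 39.6 FPKM in sham and 345 FPKM in the remnant, by the authors' deposited table. Of 2 tested skeletal muscle genes both rose in 1/3Nx, from a summed 1.2985 to 5.46 FPKM, and of 3 mesothelial and fibroblast genes Msln and Dcn rose, by the authors' deposited table. In 5/6Nx the acinar genes stood at a summed 282 FPKM, beside 0.389 FPKM in sham, by the authors' deposited table. All 4 had an unadjusted p under 0.05 by the authors' test, where 8.87% of named features at the filter were higher. Of these the acinar gene Cela2a passed the authors' threshold, as did the platelet gene Gp9. With q-values recomputed over named features Cela2a (0.00748) and Cfd (0.0301) still passed, and Gp9 (0.333) and Adipoq (0.0663) did not. No mural, macrophage, mesothelial or muscle gene did in 5/6Nx, and Acta1 of muscle was the one with an unadjusted p under 0.05.

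**Figure D5:**
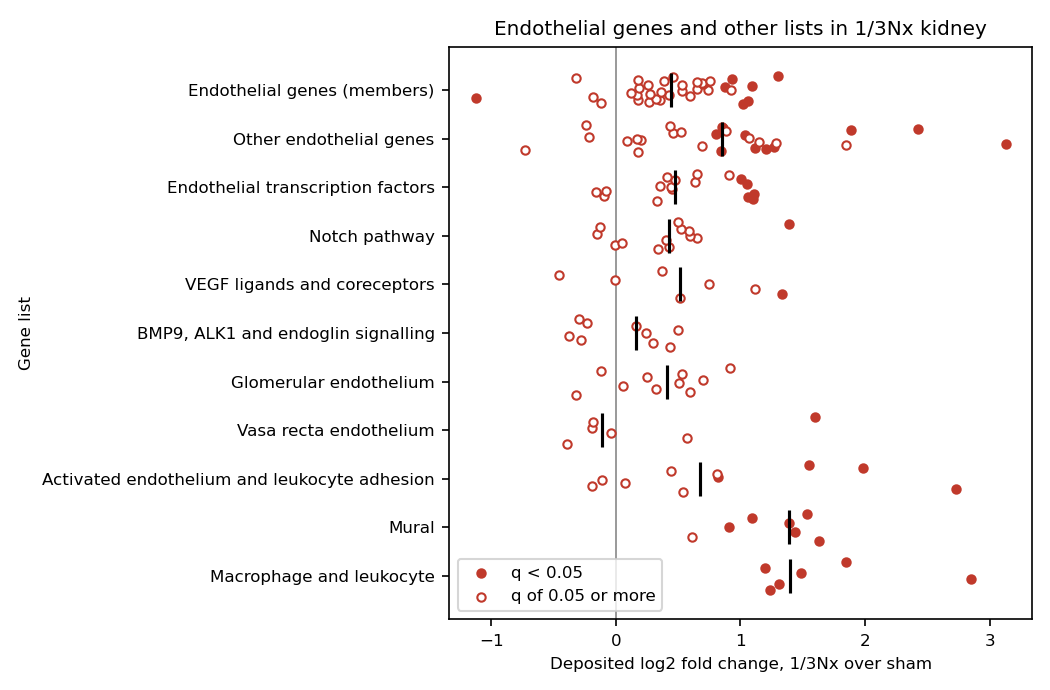
Deposited log2 fold changes in 1/3Nx over sham for the endothelial genes and 10 other gene lists, 1 point per gene, filled where the deposited q-value was under 0.05, with a black line at each list's median. The median of the 34 endothelial genes is 0.44, that of the mural genes 1.39 and that of the macrophage and leukocyte genes 1.40.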

How the data were processed

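Total RNA of 17 kidneys was sequenced after Trizol extraction with a TruSeq stranded total RNA kit on an Illumina HiSeq instrument, per the labels' protocols. The same protocols also call the libraries small RNA, a wording that could not be resolved. Tools in the submitters' processing notes are TopHat2 (2.1.1), Cufflinks (2.2.1), StringTie, cutadapt and FastQC, and the build there is rn5.

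The authors deposited tables of genes and of isoforms for both surgeries, with 1 FPKM per group, a log2 fold change, a test statistic (a score), a p-value and a q-value, per the file headers. They also deposited read counts, the percent of mapped reads and the percent of bases at quality 30 and above for each library. Rows of 628 features with several names were shifted and were realigned.

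A test on single libraries was not possible with group values, so the authors' q-values under 0.05 are the calls. Levels, transcript sums, medians and recomputed q-values (Benjamini-Hochberg) were computed with Python 3.11.15, pandas 2.3.3 and numpy 2.4.6. Of these, the Benjamini-Hochberg step alone was tested on simulated p-values. FPKM depth cannot be turned into counts here. All members are accounted for, and up to 4 genes of each other list are named by smallest deposited p-value. The members and lists were chosen with earlier results of these data known. A list of another kidney cell type is not reported here.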

Additional observations from a re-analysis of the deposited data

Results flagged for a closer look

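The number of reads of replicate 5 of 5/6Nx, 103.557 M (SI prefix mega), stood apart from the other 5 libraries of its group by Dixon's test, and chance flags about 1 in 20 groups. Its part in the endothelial values of 5/6Nx was not tested, since the authors' deposited tables hold no value for a single kidney.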

How the results depend on the processing

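In 1/3Nx the count of members that rose was 6, and 7 with q-values recomputed over named features with or without a filter on low values, 3 with a deposited q under 0.01 and 3 with the most abundant transcript of each gene, where Cdh5, Aplnr and Lyve1 did not pass. Vwf fell under each of these. The 1/3Nx median of 0.44 was 0.28 with a mean FPKM of at least 5 and 0.63 with annotated transcripts only, a choice made after seeing the data. With the most abundant transcript the sign turned in 1/3Nx for Tie1 (-0.23), Esam (-0.42), Egfl7 (-0.12), Icam2 (-0.34) and Rasip1 (-0.025), and in 5/6Nx for Egfl7 (-0.0556) and Rasip1 (-0.29). In 5/6Nx 0 members rose with both recomputations and with a deposited q under 0.01. The 5/6Nx median of 0.36 was 0.0497 with a mean FPKM of at least 5, 0.23 with the most abundant transcript and 0.18 with annotated transcripts only. Centring on the median of named features turned Kdr in 5/6Nx to 0.0567. Plxnd1 passed on recomputing in 1/3Nx, and Sema3a, Gp9 and Adipoq did not in 5/6Nx. The cause of these shifts was not tested. No replicate could be left out. No paired analysis was possible because the tables hold 1 value per group and the replicate numbers used here only name samples in accession order and come from no label.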
